A study of Arabidopsis thaliana with 12 samples.

Results

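The outer 300 kb of the 10 chromosome ends of *Arabidopsis thaliana* were examined for 24-nt small interfering RNA (siRNA). Members were the 100-bp bins of chromosomes 1 to 5 in the deposited 24-nt siRNA table that start within 300 kb of an end of the assembled chromosome, leaving out the 45S rDNA copy near the left end of chromosome 2. These were 522 of the 57094 bins in the table, and 518 of them were among the 56658 bins analysed, which exceeded 5 RPTM in at least 1 library. RPTM is the number of reads per 10000000 mapped small RNA reads of 18 to 30 nt. Small RNA was sequenced from 2-week-old seedlings, grown on plates without a treatment named in the labels, of the wild type (WT) and of 3 mutants: *pkl-1* (here *pkl*), which lacks the CHD3-type chromatin remodeler PICKLE, *nrpd1-3* (*nrpd1*), mutated in the largest subunit of RNA polymerase IV, and *nrpe1-11* (*nrpe1*), mutated in the largest subunit of RNA polymerase V. Each genotype had 3 libraries described as biological replicates, 12 in all, with 5598380 to 12390784 mapped reads each. Reads in the end bins numbered 11649 to 19541 in WT, 5827 to 8167 in *pkl*, 2547 to 3386 in *nrpe1* and 591 to 835 in *nrpd1*. The libraries came from whole seedlings, so a lower level in every cell and fewer cells that make the siRNA cannot be told apart. Replicate 1 of *pkl* stood apart from its group, with 48.5% of the WT level over the nuclear bins outside the ends against 79.7% and 95.0% in the others.

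In RNA-directed DNA methylation, Pol IV transcribes short precursors that are made double-stranded and diced into 24-nt siRNA. These siRNA guide ARGONAUTE4 to nascent Pol V transcripts, where DNA methylation is deposited, and at many loci Pol V is also needed for siRNA to accumulate. Arabidopsis telomeres are arrays of the repeat CCCTAAA, followed inward by short subtelomeres that meet the first genes within a few kilobases, and the left ends of chromosomes 2 and 4 instead carry the nucleolus organizers, which are arrays of rDNA.

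The reference assembly (TAIR10.1, RefSeq) carried only part of this organization at its tips. At least 1 copy of the telomere repeat, in either orientation, lay in the outermost 1 kb of 8 ends, from 1 copy at the left end of chromosome 5 to 81 at the right end of chromosome 2, while the outermost 1000 bases of chromosome 2 left and chromosome 4 left were undetermined. A telomere repeat was present in 13 of the 518 analysed end bins (2.51%) and in 1.65% of the 54811 other nuclear bins of the same length. Copies in tandem were found in 1 end bin, Chr1:1-100, and in 17 of the other nuclear bins. The 5 bins with a repeat that lie within 1 kb of a tip are shown first because they join the telomere sequence to the siRNA measured beside it. They are given 5′ to 3′ on the top strand of TAIR10.1, with each copy of CCCTAAA or its complement TTTAGGG in capitals.
Chr1:1-100: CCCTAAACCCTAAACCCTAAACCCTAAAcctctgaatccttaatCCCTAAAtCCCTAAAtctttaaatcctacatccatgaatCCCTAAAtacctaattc
Chr3:201-300: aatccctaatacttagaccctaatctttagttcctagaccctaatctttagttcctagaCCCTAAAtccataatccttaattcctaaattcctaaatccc
Chr5:1-100: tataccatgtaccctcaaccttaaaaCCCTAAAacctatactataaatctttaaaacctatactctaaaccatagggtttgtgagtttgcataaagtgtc
Chr4:18584901-18585000: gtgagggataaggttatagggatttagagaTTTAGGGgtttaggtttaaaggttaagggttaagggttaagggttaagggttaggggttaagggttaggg
Chr5:26974701-26974800: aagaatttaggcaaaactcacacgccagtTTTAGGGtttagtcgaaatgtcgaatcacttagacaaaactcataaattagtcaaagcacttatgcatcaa
Chr1:1-100 held 7 copies, 4 of them in tandem, and each of the others held 1. The next set holds the bins with the highest WT level in the outermost 2 kb of chromosomes 1 left and 3 left, the bins with the largest decreases in *pkl*, and the bin with the second largest decrease in *nrpe1*, at chromosome 2 left. No telomere repeat was found in them.
Chr1:701-800: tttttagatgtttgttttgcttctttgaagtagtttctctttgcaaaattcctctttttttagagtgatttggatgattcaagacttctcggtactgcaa
Chr3:1301-1400: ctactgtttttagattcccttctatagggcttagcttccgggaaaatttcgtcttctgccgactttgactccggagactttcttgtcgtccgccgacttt
Chr3:132601-132700: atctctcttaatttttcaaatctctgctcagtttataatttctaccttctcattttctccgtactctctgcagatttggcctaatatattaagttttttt
Chr1:30427401-30427500: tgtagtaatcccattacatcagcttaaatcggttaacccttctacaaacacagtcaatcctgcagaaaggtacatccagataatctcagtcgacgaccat
Chr3:301-400: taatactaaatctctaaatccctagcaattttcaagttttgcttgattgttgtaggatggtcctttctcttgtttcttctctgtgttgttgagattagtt
Chr2:187401-187500: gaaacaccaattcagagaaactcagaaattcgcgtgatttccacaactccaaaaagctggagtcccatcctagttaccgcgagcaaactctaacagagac
Of these, Chr1:30427401-30427500 lay in the annotated pseudogene AT1G81020 and the others were intergenic.

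All 3 mutants had less 24-nt siRNA at the chromosome ends than WT. The RPTM summed over the end bins was 15771, 16061 and 16260 in the WT libraries, 5776, 9669 and 11387 in *pkl*, 4103, 5536 and 5012 in *nrpe1*, and 932, 1142 and 1056 in *nrpd1*. Every mutant library lay below every WT library. The means were 55.8% ± 17.9 of WT in *pkl*, 30.5% ± 4.52 in *nrpe1* and 6.51% ± 0.657 in *nrpd1* (SD, n = 3), and each reached p = 0.1 by exact permutation (two-sided), which is as low as 3 libraries against 3 can go. Without *pkl* replicate 1 the *pkl* level was 65.7% of WT.

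In each mutant the ends held a smaller share of the nuclear siRNA than in WT. The share was 1.38, 1.37 and 1.38% of the 24-nt level over all nuclear bins in the WT libraries and 1.03, 1.05 and 1.03% in *pkl*, where replicate 1 did not stand apart. The share was 1.03, 1.11 and 1.02% in *nrpe1*, and 1.08, 0.978 and 1.14% in *nrpd1*. No mutant library overlapped WT, and the mean shares were 75.2%, 76.6% and 77.5% of the WT share in *pkl*, *nrpe1* and *nrpd1*, each with an exact permutation p of 0.1, the smallest possible. In *nrpd1* the direction was not stable: among bins whose every 24-mer is unique in the nuclear genome the share was 137.1% of the WT share, and without bins above 1000 RPTM it was 102.7%. Within the outer 100 kb the *nrpe1* share was 109.9% of the WT share. A smaller share was not particular to the ends. The next 300 kb inward held 85.0%, 46.4% and 80.7% of its WT share in *pkl*, *nrpe1* and *nrpd1*, and no mutant library overlapped WT there.

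Against the next 300 kb inward, where 645 bins lay (644 analysed), the ends differed between genotypes. The summed level at the ends was 83.0, 83.5 and 83.9% of that of the next 300 kb in WT, 73.1, 74.9 and 73.4% in *pkl*, and 136.9, 135.6 and 141.1% in *nrpe1*. *pkl* was thus lower at the ends than further in, and *nrpe1* higher, with no overlap with WT (exact permutation p = 0.1 for each). The *pkl* value rested on the outermost 2 kb, a stretch chosen after its values were seen. In *pkl* the ends stood at 55.8% of WT with it and 63.2% without it, against 63.0% in the next 300 kb. The *nrpe1* value rested on chromosome 2 left: the ends stood at 30.5% of WT with it and 20.2% without it, against 18.5% in the next 300 kb. In *nrpd1* the values of 83.1, 82.5 and 75.9% overlapped WT (exact permutation p = 0.2). At the 300-kb limit itself, the 77 bins from 250 to 300 kb summed to 1867, 1890 and 2018 RPTM in WT and to 72.9% of WT in *pkl*, and the 102 bins from 300 to 350 kb summed to 2846, 2938 and 3021 RPTM and to 60.9%.

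In the fit over all analysed bins, 98 end bins fell and 12 rose in *pkl* (limma, Benjamini-Hochberg adjusted p under 0.01). Of all 56658 bins, 8.2% fell and 1.98% rose, against 18.9% and 2.32% of the end bins. The median log2 difference was -0.50 at the ends and -0.31 over all bins. The calls in either direction made up 10.2% of all bins. In *nrpe1*, 239 end bins fell and 2 rose, 46.1% and 0.386% of the end bins, against 29.4% and 1.02% of all bins (30.4% in either direction), with median log2 differences of -1.80 at the ends and -0.68 over all bins. In *nrpd1*, 421 end bins fell and 1 rose, 81.3% and 0.193%, against 84.6% and 0.141% of all bins (84.7% in either direction), with medians of -3.39 and -2.95. In the next 300 kb inward 13.0%, 51.1% and 82.3% of bins fell in *pkl*, *nrpe1* and *nrpd1*, with medians of -0.50, -2.18 and -3.37. The excess of lower calls in *nrpe1* was thus not particular to the ends.

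Scaling the libraries to equal totals over the nuclear bins moved the median over all bins from -0.31 to 0.09 in *pkl*, from -0.68 to 0.33 in *nrpe1* and from -2.95 to -2.15 in *nrpd1*. The ends stayed lower than that median in each, with medians of -0.08, -0.77 and -2.42. The split of calls then became 36 higher and 88 lower in *pkl*, which is 6.95% and 17.0% of the end bins against 6.41% and 7.05% of all bins. In *nrpe1* it was 45 and 161, or 8.69% and 31.1% against 12.0% and 18.3%, and in *nrpd1* 42 and 311, or 8.11% and 60.04% against 4.62% and 65.5%. Quantile normalization gave 31 and 91 in *pkl* (5.98% and 17.6% against 5.80% and 7.25% of all bins), 62 and 173 in *nrpe1* (12.0% and 33.4% against 14.8% and 18.5%), and 69 and 110 in *nrpd1* (13.3% and 21.2% against 10.6% and 13.3%). With TMM scaling in edgeR the *pkl* split was 36 and 101 (6.95% and 19.5% against 6.21% and 8.88%). The share of end bins higher in *pkl* was near that of all bins under each of these scalings.

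End bins were richer in siRNA than other nuclear bins, and a higher level makes a decrease easier to call. Their median WT mean was 11.6 RPTM, against 10.5 in the next 300 kb and 7.99 in all other nuclear bins. Among bins with a WT mean above 20 RPTM, 74 of the 185 end bins fell in *pkl* (40.0%), against 31.0% in the next 300 kb and 25.9% of the other nuclear bins. In *nrpe1* the same shares were 77.8%, 87.2% and 70.4%. Bins with a WT mean below 5 RPTM could pass the filter through a mutant library in which they are high, so nothing is concluded from their calls. The counts above still include 116 such end bins. They held 8 of the 12 end bins higher in *pkl*, the 2 higher in *nrpe1* and the 1 higher in *nrpd1*. Of the end bins called lower they held 0 of 98 in *pkl*, 4 of 239 in *nrpe1* and 50 of 421 in *nrpd1*.

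The 10 ends differed widely in how much siRNA they held. Chromosome 2 left had 156 bins and 41.4% of the WT level of all ends, with sums of 6575, 6506 and 6847 RPTM. At the other extreme, chromosome 3 right had 16 bins, none of them within 174029 bp of the tip, and 128, 149 and 158 RPTM. Bins covered between 0.53% and 5.2% of the sequence of an end. Bins began at the first base of chromosomes 1 left and 5 left and within 301 bp of the tip at chromosomes 1 right, 3 left, 4 right and 5 right, but at 14488 bp at chromosome 2 right, whose tip carries the most copies of the telomere repeat in the assembly.

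Chromosomes 1 right and 3 left had the lowest levels in *pkl* relative to WT. Their sums were 1151, 1220 and 1189 RPTM in WT and 244, 388 and 470 in *pkl* at chromosome 1 right, 30.9% of WT, and 1798, 1917 and 1823 against 371, 683 and 778 at chromosome 3 left, 33.1%. Chromosome 5 right stood at 51.9%, chromosomes 1 left and 2 left at 55.1% and 55.2%, chromosome 2 right at 58.1% and chromosome 5 left at 64.9%, and at these 7 ends no *pkl* library overlapped WT. At the other 3 ends *pkl* overlapped WT: chromosome 4 left at 75.6% (exact permutation p = 0.3), chromosome 4 right at 90.5% (exact p = 0.4) and chromosome 3 right at 95.7% (exact p = 0.9). After adjustment over the 30 comparisons of an end and a mutant, the smallest p was 0.12.

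*nrpe1* had the same ends at the extremes as *pkl*, and only the ends between them were ordered differently. The lowest level was at chromosome 1 right, 5.98% of WT, followed by chromosomes 3 left at 11.7% and 4 left at 13.8%. Chromosome 2 left kept 45.0% and chromosome 4 right 47.0%. Chromosome 3 right, at 126, 134 and 146 RPTM in *nrpe1*, overlapped WT (93.4%, exact permutation p = 0.4), and none of its 16 bins was called lower. In *nrpd1* every end was below WT in every library, from 0.896% of WT at chromosome 4 left to 33.98% at chromosome 4 right.

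**Figure D1:**
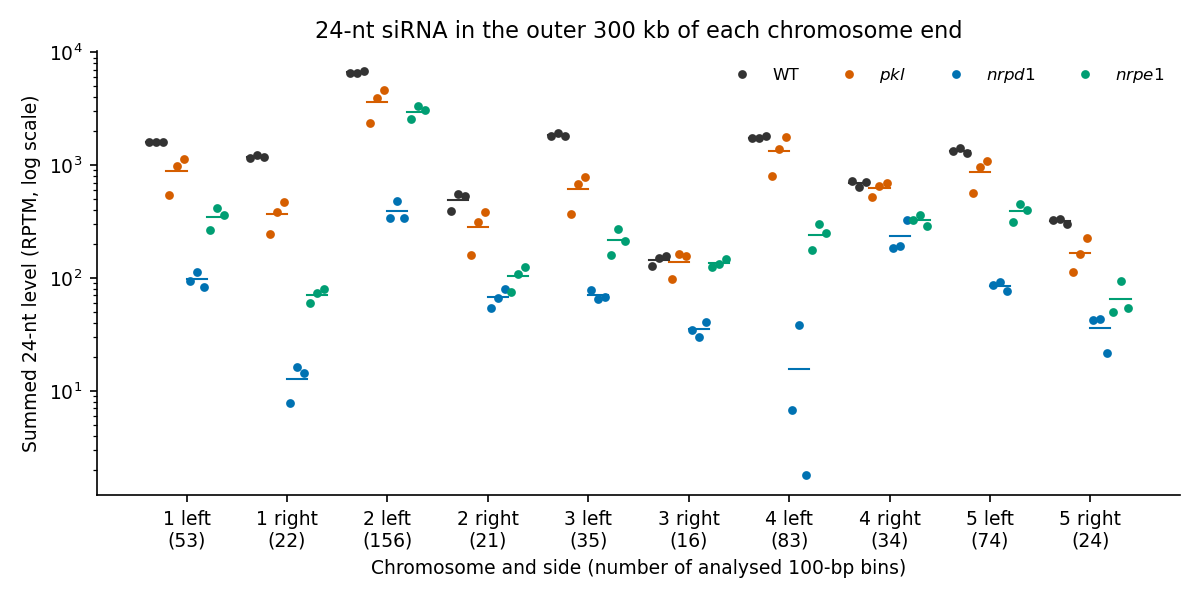
Summed 24-nt level (RPTM, log axis) of the outer 300 kb of each chromosome end in each of the 12 libraries, with a bar at the mean of each genotype and the number of analysed bins in brackets. Chromosome 2 left holds 41.4% of the WT level, and at chromosome 3 right *pkl* and *nrpe1* overlap WT.

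The outermost 2 kb stood out when the bins were plotted by distance, so this stretch was chosen after its values were seen. Its levels are a description, and counts of its bins called in the fit over all bins support nothing beyond it. Bins lay there at 6 ends other than the nucleolus organizer ends, 37 bins in all, or 7.14% of the analysed end bins. They summed to 1828, 1729 and 1660 RPTM in WT and to 152, 293 and 264 in *pkl*, 13.6% ± 4.28 of WT. *nrpe1* stood at 287, 325 and 278 RPTM, 17.1% ± 1.44 of WT, so that the *pkl* and *nrpe1* libraries overlapped. In *nrpd1* the sums were 2.23, 19.3 and 1.79 RPTM, and 29 of the 37 bins had no read in any *nrpd1* library. As a share of the nuclear level, which sets aside the scaling of each library, these bins held 18.4% of the WT share in *pkl* and 43.3% in *nrpe1*.

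Of the 37 bins, 23 fell and none rose in *pkl*, and 19 fell and none rose in *nrpe1*, with median log2 differences of -2.66 and -2.15. Of all bins, 8.2% fell in *pkl* and 29.4% in *nrpe1*. Without the outermost 2 kb of all ends, 74 of 470 end bins fell in *pkl* (15.7%). The *pkl* level was then 63.2% of WT, and the *pkl* share of the nuclear level was 85.2% of the WT share. By end, the *pkl* level in the outermost 2 kb was 2.92% of WT at chromosome 1 right (7 bins) and 7.49% at chromosome 1 left (3 bins). It was 14.0% at chromosome 5 left (6 bins), 14.1% at chromosome 3 left (8 bins), 19.5% at chromosome 5 right (4 bins) and 43.1% at chromosome 4 right (9 bins). The *pkl* libraries lay below every WT library at each of the 6.

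**Figure D2:**
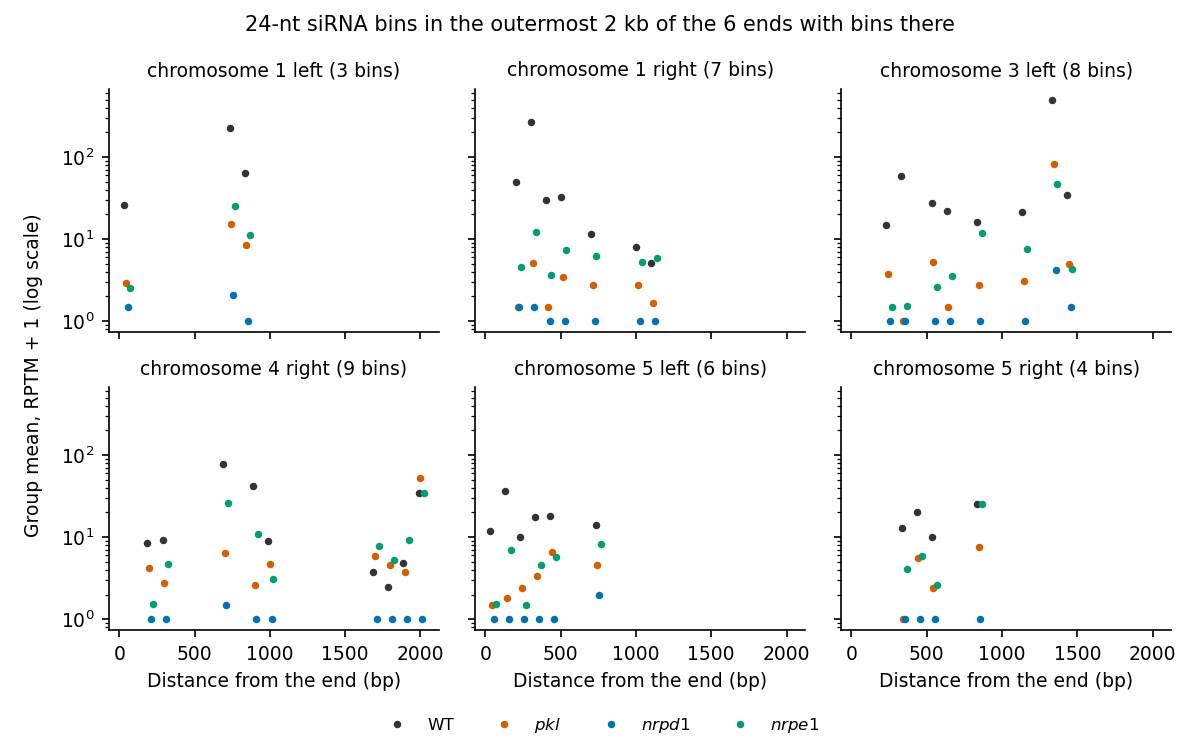
Mean 24-nt level of each genotype (RPTM + 1, log axis, n = 3 libraries) for every analysed bin in the outermost 2 kb of 6 chromosome ends, against the distance of the bin centre from the end of the assembly in bp, with the genotypes shifted slightly sideways. *pkl* lies below WT in most bins within 1500 bp of the tip, and *nrpd1* lies at or near 1, which stands for no reads.

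The tandem telomere repeat bin Chr1:1-100, 3530 bp outside AT1G01010, the outermost gene of chromosome 1, had 27.4, 25.4 and 22.3 RPTM in WT. It had 0, 2.87 and 2.79 in *pkl*, 0, 0 and 4.51 in *nrpe1*, and 0, 1.49 and 0 in *nrpd1*. All 9 mutant libraries were below WT, and the log2 differences were -3.41 in *pkl* (SE 0.561, limma adjusted p = 4.78e-05), -3.88 in *nrpe1* (SE 0.676, adjusted p = 0.002) and -4.26 in *nrpd1* (SE 0.393, adjusted p = 8.22e-05). Of the 13 end bins with any telomere repeat, 4 fell in *pkl*, 9 in *nrpe1* and 13 in *nrpd1*. These were 30.8%, 69.2% and 100%, against 8.2%, 29.4% and 84.6% of all bins. The median log2 differences of the 13 bins were -1.002, -3.17 and -4.09. Their summed level in *pkl* was 35.1, 89.6 and 95.3% of WT, with replicate 1 the lowest.

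The telomere repeat bins at the other tips did not all change alike. Chr5:1-100, in the long noncoding RNA gene AT5G00730, had 8.88, 10.2 and 14.0 RPTM in WT and 0, 1.44 and 0 in *pkl* (log2 difference -3.14, adjusted p = 0.000626). Chr5:26974701-26974800, 801 bp from the right tip of chromosome 5 and chosen after its values were seen, had 19.4, 29.3 and 23.7 RPTM in WT and 0, 5.74 and 13.9 in *pkl* (-2.41, adjusted p = 0.00762). In *nrpe1* the same bin had 19.3, 39.2 and 15.0 RPTM, overlapping WT. Chr3:201-300, with 16.1, 3.82 and 20.9 RPTM in WT and 0.991, 5.74 and 1.39 in *pkl*, did not pass the test (adjusted p = 0.0295), nor did Chr4:18584901-18585000, with 11.3, 2.54 and 8.37 against 0.991, 5.74 and 2.79 (adjusted p = 0.293). The outermost bin of chromosome 5 right, Chr5:26975201-26975300, which holds no telomere repeat, had 19.4, 7.63 and 8.37 RPTM in WT and no read in any *pkl* library (log2 difference -3.56, adjusted p = 0.000211). At chromosome 4 left the outermost bin, Chr4:1001-1100, had 1.61, 1.27 and 1.40 RPTM in WT and 2.97, 4.31 and 4.18 in *pkl* (adjusted p = 0.322).

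Abundant sites of the outermost 2 kb at chromosomes 1 left and 3 left fell in both *pkl* and *nrpe1*. Chr1:701-800, the highest WT bin of chromosome 1 left, had 214, 266 and 195 RPTM in WT, 10.9, 20.1 and 11.2 in *pkl*, and 19.3, 34.3 and 19.6 in *nrpe1*. It was 16.0-fold lower in *pkl* (log2 difference -3.95, SE 0.383, adjusted p = 8.75e-09) and 9.22-fold lower in *nrpe1*. Chr3:1301-1400, the highest WT bin of chromosome 3 left and 208 bp from AT3G01015, had 525, 537 and 415 RPTM in WT, 48.6, 99.0 and 93.4 in *pkl* and 40.3, 49.1 and 46.6 in *nrpe1*. There the decrease was 6.12-fold in *pkl* (-2.66, SE 0.355, adjusted p = 2.08e-06) and 10.9-fold in *nrpe1*. No library of either mutant reached WT in these bins.

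The right tips of chromosomes 1 and 4 shared sequence in their outer 3 kb, the longest identical stretch being 66 bases. Chromosome 1 right shared more with chromosome 5 left, with a longest stretch of 126 bases. In the pseudogene AT1G81020 at the tip of chromosome 1, Chr1:30427401-30427500 had 317, 225 and 262 RPTM in WT, 0.991, 5.74 and 5.58 in *pkl* and 14.5, 14.7 and 4.51 in *nrpe1*. That decrease, 65.4-fold in *pkl* (log2 difference -5.90, SE 0.448, adjusted p = 1.12e-10) and 23.9-fold in *nrpe1*, was the second largest at the ends in *pkl*. The adjoining Chr1:30427501-30427600, the outermost bin of that end, had 41.2, 43.2 and 60.02 RPTM in WT and 0, 1.44 and 0 in *pkl*. At chromosome 4, Chr4:18584401-18584500 in the coding sequence of AT4G40100, chosen after its values were seen, had 97.7, 63.6 and 68.4 RPTM in WT, 8.92, 4.31 and 2.79 in *pkl* and 20.9, 32.7 and 22.6 in *nrpe1*. Only 4 pairs of ends shared any 24-base stretch outside the tandem telomere repeat in their outer 3 kb.

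The largest decrease in *pkl* lay further in, at Chr3:132601-132700, an intergenic bin 125 bp from AT3G00995. It had 316, 369 and 405 RPTM in WT, 0, 5.74 and 4.18 in *pkl*, 1.61, 16.4 and 0 in *nrpe1*, and 0, 2.97 and 0 in *nrpd1*. The log2 difference was -6.79 in *pkl* (SE 0.503, limma adjusted p = 8.03e-11) and -6.67 in *nrpe1* (SE 0.883, adjusted p = 0.000474). The level was at most 16.4 RPTM in all 9 mutant libraries. Chr3:301-400, the third largest, had 51.7, 52.1 and 68.4 RPTM in WT and no read in any *pkl* library, at least 15.0-fold lower when each *pkl* library is set to the value of 3 reads.

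By distance, the *pkl* level was 46.0% of WT in the outer 50 kb (134 bins), 68.8% from 50 to 100 kb (108 bins), 51.5% from 100 to 200 kb (142 bins) and 70.1% from 200 to 300 kb (134 bins). No *pkl* library overlapped WT in any of the 4 classes, and the order was not steady with distance. Of these bins, 32, 9, 30 and 27 fell in *pkl* (23.9%, 8.33%, 21.1% and 20.1%, against 8.2% of all bins). In *nrpe1* the levels were 51.5%, 22.4%, 11.1% and 25.1% of WT. There 38, 49, 91 and 61 bins fell (28.4%, 45.4%, 64.1% and 45.5%, against 29.4% of all bins). The high *nrpe1* level of the outer 50 kb came with chromosome 2 left: without that end it was 16.0% of WT, and the *pkl* level was 38.0%.

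**Figure D3:**
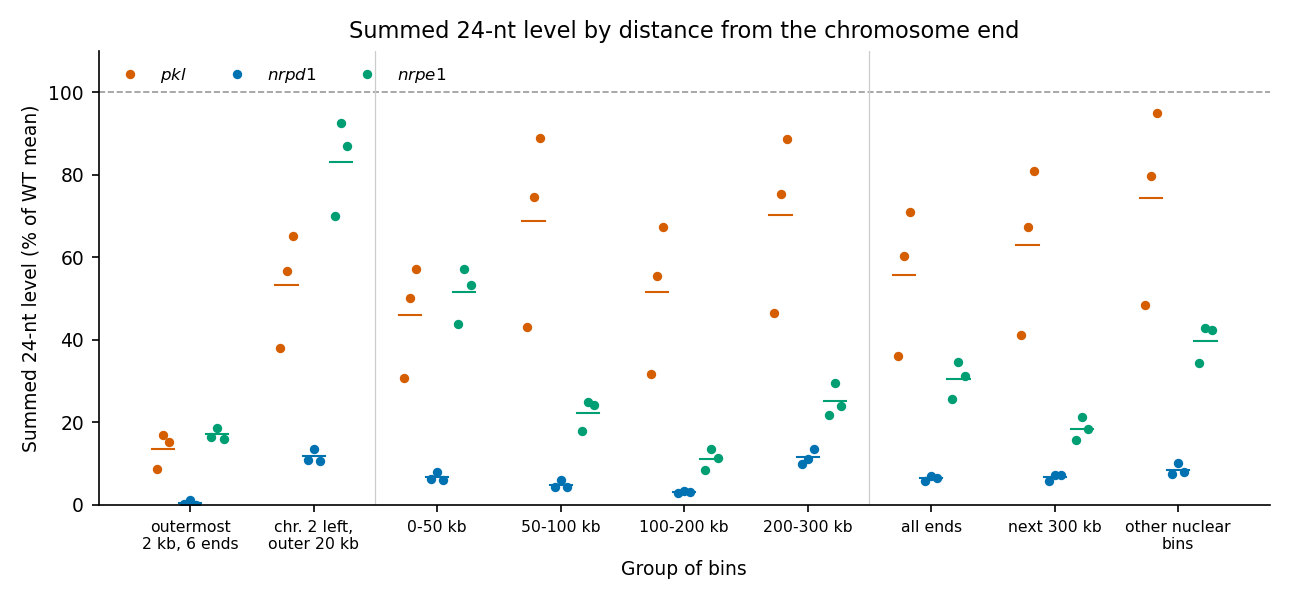
Summed 24-nt level as a percentage of the WT mean for each *pkl*, *nrpd1* and *nrpe1* library (points) and their mean (bars), in the outermost 2 kb of 6 ends and the outer 20 kb of chromosome 2 left, both chosen after seeing the data, in the 4 distance classes, in all end bins, in the next 300 kb and in all other nuclear bins. *pkl* is lowest in the outermost 2 kb, at 13.6%, and *nrpe1* is highest beside the rDNA of chromosome 2, at 83.1%.

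Chromosome 2 left held 61.3% of the end siRNA measured in *nrpe1*. In its outer 20 kb, which flank the assembled rDNA copy and were also chosen after their values were seen, 39 bins summed to 3364, 2896 and 2912 RPTM in WT and to 2136, 2827 and 2658 in *nrpe1*, 83.1% of WT, and 1 of the 39 fell in *nrpe1*. The same bins stood at 1159, 1731 and 1991 RPTM in *pkl* (53.2% of WT, 4 of 39 lower) and at 335, 416 and 329 in *nrpd1*. Beyond 20 kb, the 117 bins of that end had 3211, 3610 and 3935 RPTM in WT. In *nrpe1* they had 409, 504 and 435, 12.5% of WT, with 64 lower (54.7%). Of all bins, 29.4% fell in *nrpe1* and 8.2% in *pkl*. Without chromosome 2 left, the summed *nrpe1* level of the other 9 ends was 20.2% of WT and their share of the nuclear level 50.7% of the WT share, while the *pkl* values of 56.2% and 75.8% were close to those with it.

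The longest runs of adjoining bins lay beside the rDNA. A run of 14 bins, Chr2:1001-2400 in the gene AT2G01008, had 1726, 1470 and 1512 RPTM in WT, 379, 593 and 760 in *pkl*, 723, 1061 and 960 in *nrpe1* and 34.6, 74.3 and 28.6 in *nrpd1*. Its highest bin, Chr2:1801-1900, mostly in an intron, had 850, 705 and 783 RPTM in WT and fell 4.47-fold in *pkl* and 4.94-fold in *nrpe1*, while the outermost bin, Chr2:1001-1100, with 9.68, 6.36 and 0 RPTM in WT, passed no test. Every 24-mer of Chr2:1801-1900 recurs elsewhere in the nuclear genome of the assembly, so its reads may come from other copies. The run of 12 bins that followed, Chr2:2501-3700, was the exception in *nrpd1*: 579, 562 and 504 RPTM in WT against 294, 309 and 284 in *nrpd1*, 53.9% of WT.

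The other long runs differed from these. On the far side of the rDNA copy, the 6 bins of Chr2:9901-10500 had 963, 776 and 826 RPTM in WT, 804, 1053 and 985 in *nrpe1* and 410, 596 and 661 in *pkl*. At chromosome 1 left, the 10 intergenic bins of Chr1:238301-239300 had 247, 252 and 334 RPTM in WT, 43.6, 91.9 and 107.4 in *pkl* and 72.5, 116 and 97.8 in *nrpe1*, and the 6 bins of Chr1:291901-292500 had 169, 154 and 130 RPTM in WT, 69.4, 100.5 and 90.6 in *pkl* and 74.1, 129 and 96.3 in *nrpe1*. No read or 1 read was found in each *nrpd1* library at both of these. The *nrpe1* libraries lay above the lowest WT library in the run at Chr2:9901-10500.

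Over all ends, the 518 bins formed 299 runs, of which 173 were single bins. The 275 bins in runs of 2 to 4 carried most of the change, with 66 lower in *pkl* and 174 lower in *nrpe1*, and their summed level was 50.02% of WT in *pkl* and 11.1% in *nrpe1*. Single bins stood at 80.5% and 38.1%, with 19 (11.0%) and 54 (31.2%) lower, near the shares of all bins. In *pkl* the sum of the single bins overlapped WT (exact permutation p = 0.4). The 70 bins in runs of 5 or more stood at 52.2% and 75.5%, with 13 (18.6%) and 11 (15.7%) lower. The 308 intergenic bins held 72 that fell in *pkl* (23.4%) and 192 that fell in *nrpe1* (62.3%). Of the 63 pseudogene bins, 4 fell in *pkl* (6.35%), near the share of all bins, and 5 in *nrpe1* (7.94%). In the 96 bins of protein-coding genes 12 (12.5%) and 27 (28.1%) fell, the latter near the share of all bins. The 166 bins whose every 24-mer is unique stood at 50.03% of WT in *pkl* and 22.2% in *nrpe1*, against 50.1% and 56.3% for the 63 bins whose every 24-mer is repeated. How the reads of repeated sequence were placed is not given in the sources used here, and the reads listed in those 63 bins may come from other copies.

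**Figure D4:**
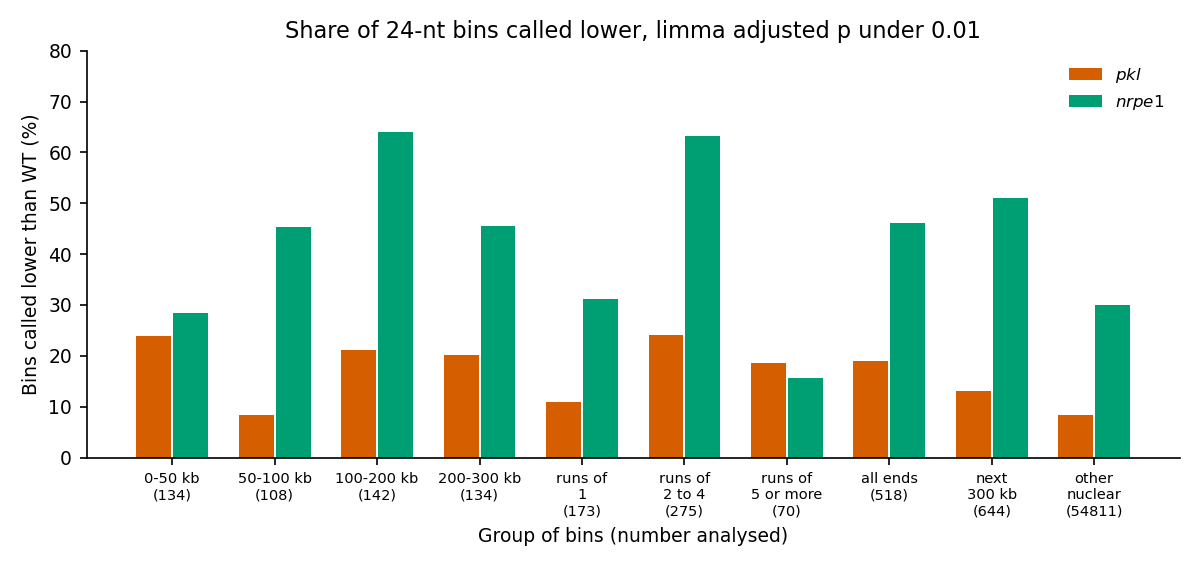
Share of analysed 24-nt bins called lower than WT in *pkl* and *nrpe1* (limma adjusted p under 0.01) by distance from the end, by length of the run of adjoining bins, and for all ends, the next 300 kb and the other nuclear bins, with the number of bins in brackets. Lower calls in *pkl* make up 18.9% of the end bins, 13.0% of the bins in the next 300 kb and 8.29% of the other nuclear bins.

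Several abundant end sites had less siRNA left in *nrpe1* than in *pkl*. Chr1:30200201-30200300, between AT1G80330 and AT1G80340, had 392, 490 and 424 RPTM in WT, 74.3, 138 and 128 in *pkl* and 0, 9.81 and 0 in *nrpe1*, the largest decrease in *nrpe1* (log2 difference -7.62, SE 0.841, adjusted p = 0.000207). Chr2:187401-187500, 107 bp from AT2G01430, had 459, 632 and 717 RPTM in WT, 13.9, 44.5 and 66.9 in *pkl* and 0, 6.54 and 4.51 in *nrpe1* (-7.42, SE 0.684, adjusted p = 9.65e-05). Chr5:56801-56900 had 213, 170.4 and 197 RPTM in WT, 52.5, 93.3 and 79.5 in *pkl* and 0, 14.7 and 0 in *nrpe1*. Each fell in *pkl* too, by 3.84-fold, 14.4-fold and 2.58-fold. Chr1:30200201-30200300 and Chr2:187401-187500 were named for the largest decreases in *nrpe1*, so a lower level there than in *pkl* was favoured by the choice.

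At the remaining ends the highest WT bin differed in which mutants it was called. In the UTR of AT2G48130 at chromosome 2 right, Chr2:19683601-19683700 had 75.1, 126 and 110.3 RPTM in WT, 10.9, 70.3 and 47.4 in *pkl* (adjusted p = 0.0186) and 0, 1.64 and 0 in *nrpe1*. The outermost bin there, Chr2:19683801-19683900, had 67.0, 48.3 and 69.8 in WT and 33.7, 61.7 and 92.0 in *pkl* (adjusted p = 0.925). An intronic bin of CRCK2, which encodes a calmodulin-binding receptor-like kinase, at chromosome 4 left (Chr4:144701-144800) had 139, 139 and 138 RPTM in WT, 35.7, 78.9 and 93.4 in *pkl* (adjusted p = 0.0435) and 8.05, 34.3 and 9.02 in *nrpe1* (adjusted p = 0.000939). At chromosome 5 right, Chr5:26788901-26789000 in the coding sequence of AT5G67120 fell in both, from 33.1, 44.5 and 40.5 RPTM in WT to 4.96, 8.61 and 4.18 in *pkl* and to 0, 1.64 and 0 in *nrpe1*. Chromosome 3 right's highest bin, Chr3:23207201-23207300 in the annotated pseudogene AT3G62725, had 29.9, 43.2 and 47.5 RPTM in WT, 13.9, 37.3 and 26.5 in *pkl* (adjusted p = 0.286) and 8.05, 11.4 and 24.1 in *nrpe1* (adjusted p = 0.0184).

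A few end sites gained siRNA in *pkl*. Chr5:114001-114100, in the UTR of AT5G01280, had 0.807, 0 and 0 RPTM in WT and 38.7, 54.5 and 99.0 in *pkl*, with no read in *nrpd1* or *nrpe1* (log2 difference 5.63, adjusted p = 4.96e-09). Intergenic Chr4:78801-78900 had 2.42, 1.27 and 1.40 RPTM in WT and 22.8, 48.8 and 72.5 in *pkl* (4.06, SE 0.511, adjusted p = 7.92e-07), and at most 1.64 in the other mutants. Both bins passed the filter of above 5 RPTM in at least 1 library through their *pkl* values alone, so they had to differ in this direction to be analysed. Chr2:72501-72600, in the noncoding RNA gene AT2G03885, rose in *pkl* (6.94, 5.74 and 12.5 RPTM) and in *nrpe1* (4.83, 4.91 and 4.51) from 0.807, 0 and 0 in WT. The other increase called in *nrpe1*, Chr1:255801-255900 in AT1G08775, went from 0.807, 1.27 and 1.40 RPTM to 8.05, 8.18 and 12.0. In these 2 bins no WT library exceeded 5 RPTM, so they too had to be higher in a mutant to be analysed.

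Little end siRNA remained in *nrpd1*, and much of it lay at a few sites. The highest *nrpd1* bin, Chr4:18293701-18293800, overlaps 21 bases of the tRNA gene AT4G39345 and had 123, 81.4 and 128 RPTM in WT, 161, 152 and 302 in *nrpd1*, 245, 151 and 167 in *pkl* and 180.4, 219 and 152 in *nrpe1*. No comparison passed the test there (adjusted p = 0.0599, 0.15 and 0.0414 in *nrpd1*, *pkl* and *nrpe1*), and this bin made up most of the *nrpd1* level of chromosome 4 right, 185, 192 and 325 RPTM. The 8 end bins that overlap a tRNA gene summed to 190.5, 154 and 174 RPTM in WT, 323, 215 and 226 in *pkl*, 237, 223 and 373 in *nrpd1* and 254.5, 276 and 227 in *nrpe1*, above WT in every mutant library (147%, 161% and 146% of WT). Chr4:18293701-18293800 is 1 of these 8 and made up most of the sum in every library, so the sums tell little about the others. None of the 8 was called in a mutant, against 84.7% of all bins in *nrpd1*. Among them was Chr3:23285801-23285900 in AT3G63006, the outermost bin of chromosome 3 right (7.26, 8.90 and 5.58 RPTM in WT, 13.4, 13.4 and 12.5 in *nrpd1*, limma adjusted p = 0.0107). Reads that match tRNA, rRNA and other structural RNA had been removed by the authors before counting.

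Next in *nrpd1* were bins beside the rDNA. Chr2:3601-3700 had 107.3, 132 and 102 RPTM in WT and 117, 164 and 116 in *nrpd1*, with like levels in *pkl* (82.3, 152 and 124) and *nrpe1* (91.8, 139 and 134), and Chr2:3101-3200, in the annotated microRNA gene MIR5642b, had 121, 53.4 and 46.1 in WT and 64.8, 58.0 and 78.6 in *nrpd1*. The 1 end bin that rose in *nrpd1* was Chr3:88501-88600 in the coding sequence of HIR2, a member of the hypersensitive induced reaction family. It had 0.807, 0 and 0 RPTM in WT and 3.35, 2.97 and 5.36 in *nrpd1* (log2 difference 1.98, limma adjusted p = 0.00119). No WT library exceeded 5 RPTM there, so it had to be higher in a mutant to be analysed. It was not among the bins tested at above 5 RPTM in at least 3 libraries.

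MicroRNA genes are transcribed by Pol II. Among all bins, 10.2%, 30.4% and 84.7% were called in *pkl*, *nrpe1* and *nrpd1*. Of 7 end bins in microRNA genes, none was called in *pkl* or *nrpe1* and 1 fell in *nrpd1*. That 1, Chr2:2901-3000 in MIR5642b, had 28.2, 31.8 and 40.5 RPTM in WT and 1.12, 2.97 and 0 in *nrpd1* (log2 difference -4.07, adjusted p = 0.000334). Other bins of the same gene were low in *nrpd1* without passing the test: Chr2:2801-2900 had 16.9, 12.7 and 11.2 RPTM in WT and 6.70, 0 and 0 in *nrpd1* (adjusted p = 0.0154), and Chr2:3001-3100 had 31.5, 40.7 and 32.1 against 21.2, 16.4 and 7.14 (adjusted p = 0.0218). MIR165a, whose product targets class III HD-ZIP transcripts, had 47.6, 29.3 and 29.3 RPTM in WT and 29.7, 34.4 and 34.9 in *pkl* in its higher bin, and 63.6, 68.4 and 62.5 in *nrpd1* (adjusted p = 0.0133). MIR403, whose product targets ARGONAUTE2, had 23.4, 38.2 and 25.1 RPTM in WT, 16.9, 34.4 and 43.2 in *pkl* and 36.8, 55.01 and 60.7 in *nrpd1* (adjusted p = 0.0406). Neither MIR165a nor MIR403 passed the test.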

How the data were processed

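Small RNA of 18 to 30 nt from 12 seedling libraries (3 each of WT, *pkl*, *nrpd1* and *nrpe1*, grouped by the genotype label) was trimmed at quality 30 and mapped to TAIR10, after reads matching structural RNAs were removed, and uniquely mapped reads were counted in 100-bp bins by the authors. The deposited values are signal in RPTM, the 24-nt read count of a bin per 10000000 mapped reads, listed for 57094 bins, and no column held a comparison of the authors. The submitters' processing notes name CASAVA 1.8, Trim Galore 0.4.0, BWA 0.7.15, bedtools and edgeR. Divided by what a single read is worth in its library (0.807 to 1.79 RPTM), 100% of the values came out whole, which recovered the reads.

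Because the values are normalised, the main test was limma 3.58.1 (R 4.3.3, with trend) on log2(RPTM + 1) over 56658 bins above 5 RPTM in at least 1 library, 1 fit for each mutant against WT, Benjamini-Hochberg adjusted over all bins and called under 0.01. Log2 differences on this scale understate changes of low bins. Sums and shares were tested over libraries by exact permutation, two-sided. The edgeR 4.0.16 quasi-likelihood test on the recovered reads called 6717, 47382 and 19444 bins in *pkl*, *nrpd1* and *nrpe1*, and DESeq2 1.42.0 called 4930, 34044 and 12413. The test was tested on simulated data. Replicate pairs differed by more than sampling noise (chi-square per degree of freedom 1.33 to 4.71), so none was merged, and p-values measure only the spread between these libraries. Replicate numbers were not used to pair the samples.

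Chromosome lengths of TAIR10.1 fit the bins (0 beyond an end), and it gave sequences and annotation. Named bins were, for each end, the highest in WT and the outermost, the largest changes in *pkl* and *nrpe1*, the highest in *nrpd1*, all in microRNA genes, those with tandem telomere repeats and the 5 longest runs. Members and lists were chosen with earlier results of these data known. Other pseudocounts, filters, scalings, tools and sets of libraries were tried. No column was left unused (0).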

Additional observations from a re-analysis of the deposited data

How the results depend on the processing

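The count of end bins lower in *pkl* (98) was 51 with a pseudocount of 0.1, 39 of the 166 bins whose every 24-mer is unique, 41 of 242 in the outer 100 kb, and 60 to 100 with 1 library left out, the lowest being 63, 62 and 60 without WT replicates 1, 2 and 3. The 12 higher in *pkl* were 5 with a pseudocount of 0.1, 36 with equal nuclear totals, 31 with quantile normalization, 36 with edgeR and TMM, 19 with DESeq2, 23 at an adjusted p under 0.05, 5 among bins of unique 24-mers, 3 in the outer 100 kb, and 5 to 20 with 1 library left out (7, 6 and 7 without WT replicates 1, 2 and 3, and 20, 5 and 5 without *pkl* replicates 1, 2 and 3). The 422 end bins called in *nrpd1* were 179 with quantile normalization, 118 among bins of unique 24-mers, 199 in the outer 100 kb and 397 to 410 with 1 library left out. The 241 called in *nrpe1* were 143 with a pseudocount of 0.1, 65 among bins of unique 24-mers, 88 in the outer 100 kb, and 161 to 232 with 1 library left out. For those without a WT replicate the counts were 166, 163 and 161. The unique and outer 100 kb sets hold fewer bins, and the share called also differed there: 39.2% and 36.4% in *nrpe1* against 46.5% at all ends, 71.1% and 82.2% in *nrpd1* against 81.5%, and 26.5% and 18.2% in *pkl* against 21.2%. The cause was not tested.

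With the replicate number as a replicate block, 113 end bins were lower and 19 higher in *pkl*, 429 were called in *nrpd1* and 250 in *nrpe1*. Same-numbered *pkl* and WT libraries deviated together with r of 0.17, 0.04 and 0.06, so the block was not used.

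The share of the nuclear level at the ends reversed in *nrpd1* to 137.1% of the WT share among bins of unique 24-mers (exact p = 0.1) and to 102.7% without bins above 1000 RPTM (p = 0.7), and in *nrpe1* to 109.9% in the outer 100 kb (p = 0.1). Under the other alternatives the summed levels and shares kept their direction. The summed level ranged from 48.2% to 65.7% of WT in *pkl*, 5.53% to 16.8% in *nrpd1* and 20.2% to 50.3% in *nrpe1*, and the *pkl* share from 69.8% to 85.2%. Leaving out chromosome 2 left or the outermost 2 kb was added after seeing the data. In *nrpd1* 591 to 835 end reads per library limit what can be seen.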

Other observations

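Further from the tips, the *nrpe1* level changed in steps of 300 kb. It was 30.5% of WT in the outer 300 kb, 18.5% from 300 to 600 kb, 22.5% from 600 to 900 kb, 18.2% from 900 to 1200 kb and 19.7% from 1200 to 1500 kb. From 1500 kb to 3000 kb it lay between 36.5% and 57.7%. The *pkl* level was 55.8%, 63.0%, 73.8%, 63.6% and 83.1% in the same first 5 steps, and 81.8%, 55.7%, 84.0%, 73.0% and 81.8% in the next 5. The summed *pkl* level from 1800 to 2100 kb was thus as low as in the outer 300 kb. In that step *nrpd1* kept 63.6% of WT, against 6.51% in the outer 300 kb, so the 2 sums are not alike. Lower calls in *pkl* made up 9.96% of its bins, against 18.9%. The highest *nrpe1* level, 57.7%, lay in the same step.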
